A study of Homo sapiens with 26 samples.

Results

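The neurofilaments and the other intermediate filament proteins of neural cells were followed at the RNA level in KELLY, an established cell line from human neuroblastoma in which MYCN is amplified. The 7 genes were taken by symbol, NEFL, NEFM, NEFH, INA, PRPH, VIM and NES, out of 26485 genes in the deposited tables, and all 7 had enough counts to be tested in culture and in tumours. The cells carried the doxycycline-inducible lentiviral vector FH1UTG, which also encodes green fluorescent protein. The vector was empty (EV, written F1HUTG in the labels) or held a hairpin against RUNX1T1, called sh4 or shAMB. Each of the 3 lines was grown for 72 h in DMSO or in doxycycline with 3 replicates, or 18 libraries from 6 groups. KELLY tumours, which the labels call PDX, gave 8 more libraries. Of these, 4 were labelled WT on control food and 4 were labelled RUNX1T1 KO on doxycycline food. The methods describe hairpin-bearing cells placed under the skin of NOD SCID gamma mice, that is, knockdown and not knock-out. The labels do not name the tumour hairpin. The study's text gives it as the one built on an Ambion siRNA, and only the name links that hairpin to shAMB. These hosts lack lymphocytes but keep fibroblasts, vessels and myeloid cells.

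Intermediate filaments are rope-like polymers of the cytoskeleton. In axons NEFL, NEFM and NEFH, the light, medium and heavy neurofilament subunits, co-assemble with INA (internexin alpha) in central neurons and with PRPH (peripherin) in peripheral and autonomic neurons. VIM (vimentin) and NES (nestin) build the filaments of neural progenitors and of neural crest derivatives, VIM also those of fibroblasts, vessels and glia, and NES polymerises only together with another type such as VIM. Neuroblastoma arises from the sympathetic lineage, in which peripherin and neurofilaments mark neuronal cells.

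The libraries held 35115915 to 54736733 expected counts in culture and 47346063 to 62378060 in tumours. The study's text reports lower RUNX1T1 protein on western blots of KELLY cells with either hairpin after doxycycline. It also reports loss of RUNX1T1 staining in KELLY knockdown tumours taken before the endpoint. The libraries measure RNA and not protein. RUNX1T1, the gene that the hairpins target, was not called lower at the RNA level in the libraries labelled as induced. Its log2 fold change was −0.11 with sh4 (adjusted p = 0.117, edgeR), 0.06 with shAMB (0.378), −0.16 with EV (0.672) and −0.23 for tumours (0.229), so the group names below follow the labels. Without sh4 doxycycline replicate 2 the sh4 value was −0.16 (adjusted p = 0.0434). In DMSO RUNX1T1 was already lower in the sh4 line than in EV, at 33.3 to 35.01 against 39.3 to 44.1 CPM, with a log2 difference of −0.29 (adjusted p = 0.0144). This call was lost without EV DMSO replicate 1 or sh4 DMSO replicate 1 or 2, and with the compared groups only. The median of all genes changed by −0.0046 in sh4, 0.10 in shAMB and 0.02 in tumours. All 8 adrenergic neuroblastoma markers were detected in every group, and their summed level was 3225 to 3722 CPM (counts scaled to library size, with TMM factors) in the DMSO libraries, 4536 to 5749 in sh4 with doxycycline and 7083 to 7794 in shAMB with doxycycline. In EV with doxycycline it was 3536 to 3710, and in tumours 3393 to 4139 in control and 6876 to 9194 in the KO label. The sums hide a split, with 4 of the 8 higher and 2 lower in sh4 and in shAMB and 3 higher in tumours. MYCN rose by 0.68, 1.57 and 1.46 on the log2 scale, while TH, the first enzyme of catecholamine synthesis, fell by 1.40 in sh4 and rose by 2.39 in shAMB. Summed Schwann cell markers stayed between 3.79 and 9.23 CPM, with FABP7 at 0 in 7 of 8 groups, and fibroblast markers between 57.8 and 140 CPM. Endothelial markers were at 0.628 to 2.27 CPM and macrophage and leukocyte markers at 0.650 to 2.74 CPM. In bulk RNA fewer cells of a type and less RNA per cell cannot be told apart.

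Compared between genes per kilobase of the deposited gene length, NEFH was the most abundant filament RNA of KELLY cells and VIM the least. In EV with DMSO NEFH reached 226 ± 15.9 CPM per kb (SD, n = 3), followed by INA at 88.2 ± 4.29 and NES at 84.3 ± 2.75, whose ranges overlapped. NEFM stood at 65.4 ± 2.09, PRPH at 31.6 ± 6.75, NEFL at 14.2 ± 0.371 and VIM at 10.3 ± 0.0439 CPM per kb, with no overlap between neighbours. The light chain, around which neurofilaments assemble, was therefore the scarcest RNA of the neurofilament triplet, with 4.60 ± 0.255 NEFM and 15.9 ± 0.705 NEFH per NEFL on the per-kilobase scale.

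The order was different in the tumours. There NEFM stood at 13.4 ± 2.06 CPM per kb in control (n = 4), below PRPH at 21.3 ± 4.93 and NEFL at 18.8 ± 2.98, and the ranges of PRPH and NEFL and of NEFL and NEFM overlapped. The NEFM to NEFL ratio was 0.737 ± 0.222 in control tumours and 0.833 ± 0.108 in the KO label, against 3.03 to 4.60 as group means in culture. The tables of culture and tumours were scaled separately and tumours differ from culture in host, so this is a side-by-side description with no test.

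**Figure D1:**
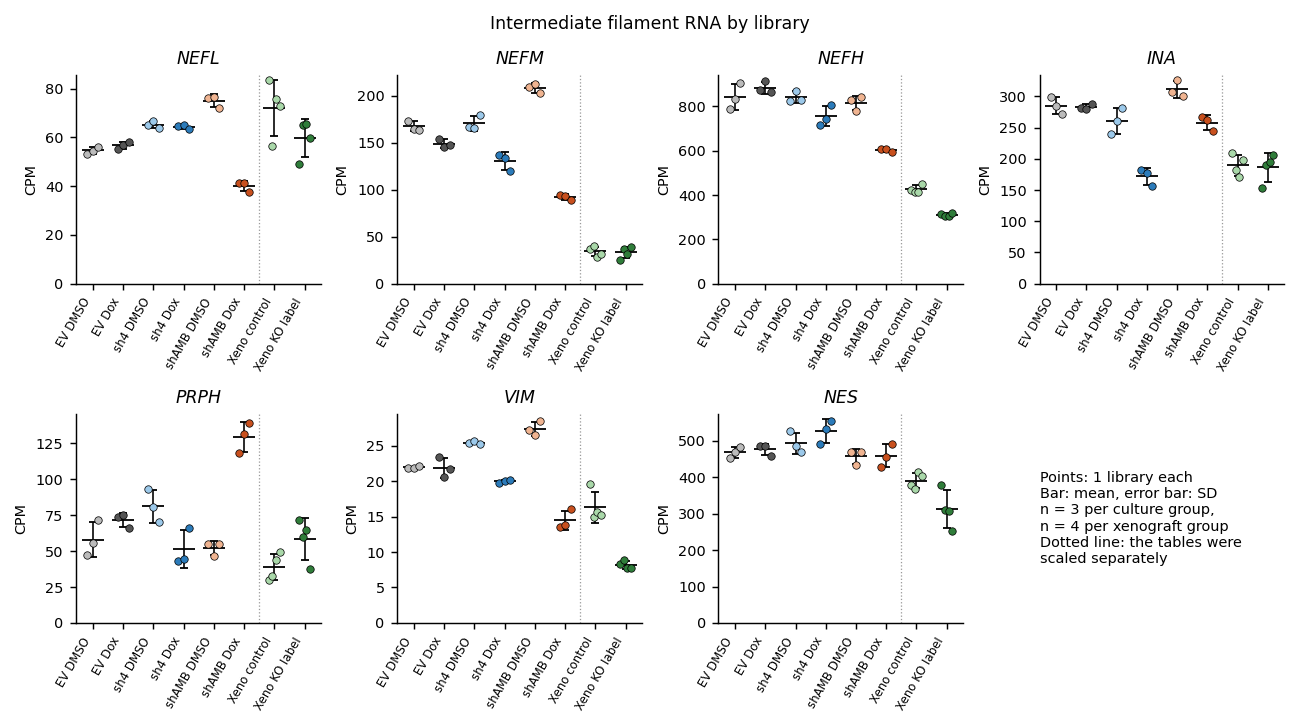
RNA level of each of the 7 filament genes (vertical axes, CPM, linear and starting at 0) in every library, by group on the horizontal axis. Points are single libraries, bars are group means and error bars SD (n = 3 in culture, n = 4 in tumours). NEFL, NEFM and VIM are lowest in culture in shAMB with doxycycline, where PRPH is highest, and NEFM lies at 25.2 to 39.8 CPM in all 8 tumours.

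Doxycycline alone changed none of the 7 genes at an adjusted p under 0.05. In EV cells 0 of 7 were called by edgeR and 0 by DESeq2, with 1 at an unadjusted p under 0.05, against 0.0939% of all 14905 genes tested that edgeR called. That gene was NEFM, at 173, 165 and 164 CPM in DMSO and 154, 146 and 147 CPM in doxycycline. The groups did not overlap, and the log2 fold change was −0.17 ± 0.05 (SE, adjusted p = 0.672). NEFL, NEFH, INA, VIM and NES had log2 fold changes between −0.01 and 0.07 in EV. PRPH, the most variable of the members, was 47.0, 55.5 and 71.4 CPM in DMSO and 73.7, 75.4 and 66.3 CPM in doxycycline, and the ranges overlapped.

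With doxycycline the sh4 line had lower RNA of 5 of the 7 genes and higher RNA of none, and the shAMB line had lower RNA of 5 and higher RNA of 1. In sh4 40.9% of all genes tested were called, 22.9% higher and 18% lower. In shAMB the share was 66%, with 37.6% higher and 28.4% lower. The median log2 fold change of the 7 genes was −0.35 in sh4 and −0.44 in shAMB. Each of the 7 genes that was called in these comparisons had groups that did not overlap. How often this holds among all genes was not computed.

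**Figure D2:**
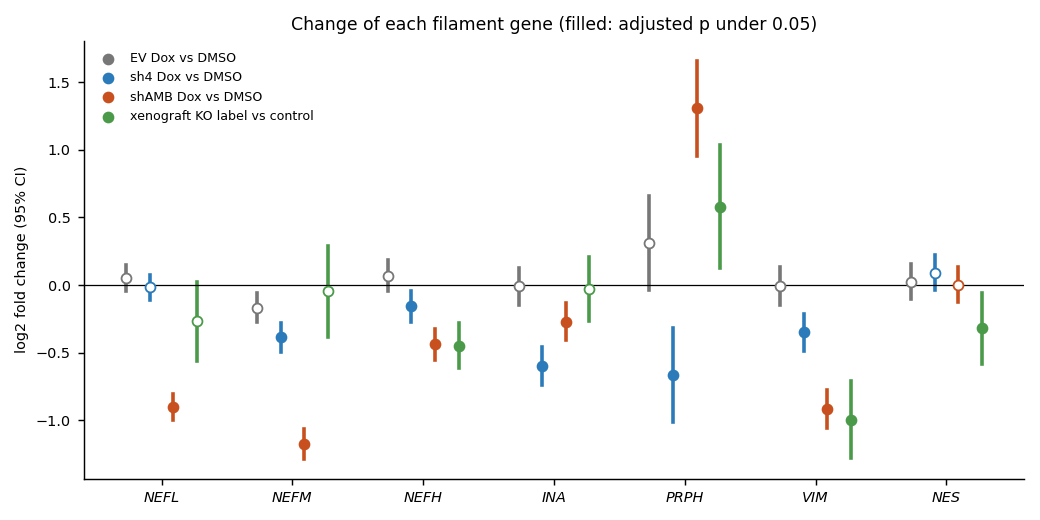
log2 fold change of each filament gene (vertical axis) with its 95% confidence interval from edgeR in EV, sh4 and shAMB cells (doxycycline against DMSO, n = 3 each) and in tumours (KO label against control, n = 4 each). Filled points have an adjusted p under 0.05. PRPH lies at −0.67 in sh4 and 1.31 in shAMB, while NEFM and VIM lie below 0 in both.

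NEFL fell in shAMB and not measurably in sh4. The shAMB libraries were 76.3, 76.7 and 71.9 CPM in DMSO and 41.2, 41.3 and 37.6 CPM in doxycycline. Each doxycycline library lay far below each DMSO library, and the log2 fold change was −0.90 ± 0.05 (adjusted p = 1.4e-10). In sh4 the DMSO libraries were 65.1, 66.9 and 63.8 CPM and the doxycycline libraries 64.6, 65.2 and 63.6 CPM, which overlapped. The log2 fold change there was −0.02, with a 95% interval of −0.11 to 0.08. With deposited TPM (the length-scaled abundance of RSEM) and limma it was 0.16 with an adjusted p of 0.00644, and once GC content and length trends were removed it was −0.13 with an adjusted p of 0.00660, so its direction depended on the scaling.

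NEFM, whose long side arms help to space filaments in the axon, fell with both hairpins. In sh4 it was 166, 166 and 179.6 CPM in DMSO and 137, 134 and 119.8 CPM in doxycycline. The shAMB libraries stood at 209, 213 and 203 CPM in DMSO and 94.9, 92.8 and 88.8 CPM in doxycycline. The fall was larger in shAMB, at −1.18 ± 0.05 (adjusted p = 3.6e-11), than in sh4, at −0.39 ± 0.05 (adjusted p = 1.8e-05). The difference between the hairpins was 0.79 (adjusted p = 2.7e-07), computed as sh4 minus shAMB. With TPM and limma the sh4 fall was −0.20.

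NEFH, the subunit with the largest phosphorylated tail, fell least of the triplet in shAMB. The level in shAMB was 829.6, 780.5 and 840.4 CPM in DMSO and 609, 608 and 594 CPM in doxycycline, a log2 fold change of −0.44 ± 0.05 (adjusted p = 3.7e-06). It was −0.26 with TPM and limma and −1.04 once GC content and length trends were removed, where NEFL was at −0.96 and NEFH no longer fell least. In sh4 it was 825, 871 and 827 CPM in DMSO and 717, 743 and 805 CPM in doxycycline. The third sh4 doxycycline library lay close under the DMSO range, and the log2 fold change was −0.16 ± 0.05 (adjusted p = 0.0294). This sh4 call was lost without sh4 DMSO replicate 2 (−0.13), sh4 doxycycline replicate 1 (−0.12) or replicate 2 (−0.15), once GC content and length trends were removed (−0.07) and with TPM, where the sign turned to 0.02.

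The ratio of the medium to the light chain RNA was lower with doxycycline in all 3 lines. Per kilobase, NEFM to NEFL was 4.17 ± 0.0604 in shAMB with DMSO and 3.46 ± 0.0862 with doxycycline, and 3.93 ± 0.264 against 3.03 ± 0.185 in sh4, without overlap in either line. In EV it was 4.60 ± 0.255 and 3.95 ± 0.212, also without overlap. The NEFH to NEFL ratio was 11.3 ± 0.783 in shAMB with DMSO and 15.6 ± 0.618 with doxycycline. These ratios are descriptions, and no test was run on them.

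INA, the partner of the triplet in central axons, fell in both hairpin lines, and more in sh4. It was 239, 261 and 282 CPM in sh4 with DMSO and 182, 178 and 157 CPM with doxycycline. With shAMB it was 307, 326 and 300.5 CPM and then 267, 262 and 245 CPM. The groups were apart in both lines, with log2 fold changes of −0.60 ± 0.07 in sh4 (adjusted p = 2.4e-06) and −0.27 ± 0.06 in shAMB (adjusted p = 0.00169). The shAMB call was lost with TPM and limma (−0.09, adjusted p = 0.248). INA was the only gene of the 7 with a larger fall in sh4 than in shAMB among those that fell in both, and the difference, sh4 minus shAMB, was −0.33 (adjusted p = 0.00649). That call was lost once GC content and length trends were removed (−0.17, adjusted p = 0.196).

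Part of the INA exons overlaps NT5C2, a gene read from the other strand. The overlap covers 13.9% of the exon bases, and the strand setting of the counting is not stated. NT5C2 changed by 0.16 in sh4 (adjusted p = 0.0285) and by −0.33 in shAMB (7.7e-05). In sh4 it thus moved opposite to INA, and in shAMB it fell as INA did. Against the EV response the sh4 change of NT5C2 was not called (0.17, adjusted p = 0.0986, edgeR). Without a known strand setting reads of these overlapping stretches cannot be told apart.

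PRPH, the filament protein typical of sympathetic neurons, moved in opposite directions with the 2 hairpins. In sh4 it was 93.2, 80.6 and 70.3 CPM in DMSO and 43.4, 44.2 and 66.4 CPM in doxycycline. In shAMB it was 55.0, 46.7 and 55.2 CPM in DMSO and 118, 131 and 139 CPM in doxycycline. The shAMB groups lay wide apart, whereas the highest sh4 doxycycline library came near the lowest DMSO library. The log2 fold change was −0.67 ± 0.16 in sh4 (adjusted p = 0.00396) and 1.31 ± 0.17 in shAMB (adjusted p = 4.6e-06), and sh4 minus shAMB was −1.98 ± 0.23 (adjusted p = 3.6e-06). Once GC content and length trends were removed all 3 were smaller and still called, at −0.37, 0.38 and −0.75. In shAMB PRPH rose from 0.351 ± 0.0393 to 1.97 ± 0.223 copies per NEFM on the per-kilobase scale.

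Among the 7 genes PRPH also has the largest antisense overlap, 71.5% of its exon bases with TROAP-AS1, a gene with no deposited culture counts under that symbol. Its expected counts were fractional, such as 2055.90, while those of the other 6 genes were whole, as given by RSEM when reads are divided between features. The PRPH counts therefore carry an uncertainty that the replicate spread does not show. Which features shared the PRPH reads was not tested.

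The upstream sequences of PRPH and VIM are shown because these genes moved apart in shAMB. In the fit reported here they also did so in tumours, where the PRPH groups overlapped and its call did not hold throughout. RefSeq gave the 250 bases before the start of 4 of the 7 genes, INA, NES, PRPH and VIM, on GRCh38.p14. They were searched on both strands for CANNTG, the E-box bound by helix-loop-helix factors, which 61.8% of 35116 promoters held, and for TATAAA, which 10.7% held. PRPH had 1 E-box and a TATAAA match, INA 2 E-boxes and no TATAAA, and VIM and NES neither motif. Capitals mark the E-box, and both stretches end at the base before the start site, read 5′ to 3′ on the plus strand, PRPH at chr12:49294897-49295146 and VIM at chr10:17227991-17228240.
PRPH: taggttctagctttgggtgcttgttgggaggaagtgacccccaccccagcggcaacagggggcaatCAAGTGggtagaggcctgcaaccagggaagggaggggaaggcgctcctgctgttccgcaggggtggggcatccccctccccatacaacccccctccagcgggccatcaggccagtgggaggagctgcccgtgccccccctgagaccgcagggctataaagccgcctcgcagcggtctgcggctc
VIM: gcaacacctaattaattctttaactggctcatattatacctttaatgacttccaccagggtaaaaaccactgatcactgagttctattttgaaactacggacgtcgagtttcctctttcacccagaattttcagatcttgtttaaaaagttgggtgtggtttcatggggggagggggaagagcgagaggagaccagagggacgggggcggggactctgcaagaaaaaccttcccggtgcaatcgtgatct
A match of letters is a description, and binding was not measured in these libraries.

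VIM, the filament of mesenchymal and progenitor cells, was low in all groups and fell with both hairpins. In sh4 it was 25.3, 25.7 and 25.2 CPM in DMSO and 19.8, 20.0 and 20.1 CPM in doxycycline. With shAMB it was 27.3, 26.5 and 28.4 CPM in DMSO and 13.6, 13.8 and 16.0 CPM in doxycycline. The groups were apart, and the sh4 replicates lay closer together than counting error alone gives on average at 820 to 1317 counts, with log2 fold changes of −0.35 ± 0.06 in sh4 (adjusted p = 0.000453) and −0.92 ± 0.07 in shAMB (adjusted p = 8.3e-09). The sh4 call was lost with TPM and limma (−0.17, adjusted p = 0.0511). Exons of VIM overlap antisense genes over 24.6% of their bases, among them VIM-AS1, which had 1 to 6 counts per library against 401 or more for VIM.

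NES, the nestin of dividing neural progenitors, was not called in any of the 3 culture lines. In sh4 it was 525, 485 and 469 CPM in DMSO and 490.0, 531 and 555 CPM in doxycycline. In shAMB it was 470.1, 434 and 468 CPM in DMSO and 429, 454 and 492 CPM in doxycycline. The ranges overlapped in both lines, with log2 fold changes of 0.09 (95% interval −0.04 to 0.22) and 0.00386 (−0.12 to 0.13). This depended on the scaling, since NES was called higher with TPM and limma, at 0.26 in sh4 and 0.18 in shAMB, and lower in shAMB once GC content and length trends were removed, at −0.77 (adjusted p = 2.4e-06).

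The doxycycline responses were also compared between lines by interaction terms of the same fit. Against the EV response, 5 of 7 genes differed in sh4, all lower (32.6% of all genes tested were called), and 6 of 7 in shAMB, with 5 lower and PRPH higher (45.5%). These 2 comparisons share the EV libraries. Between sh4 and shAMB 6 of 7 differed, where 60.9% of all genes were called, and NES was the one not called, at 0.09 with a 95% interval of −0.09 to 0.27. It was called once GC content and length trends were removed (0.95, adjusted p = 1.6e-05). NEFL, NEFM, NEFH and VIM were lower in the shAMB response, and INA and PRPH in the sh4 response. For NEFM (−0.22, adjusted p = 0.0292) and NEFH (−0.23, adjusted p = 0.0321) the difference of sh4 from EV was small. The NEFM call was lost without EV DMSO replicate 2 or 3, EV doxycycline replicate 1 or sh4 DMSO replicate 3. The NEFH call was lost without EV DMSO replicate 1 or 2, EV doxycycline replicate 1 or 2, sh4 DMSO replicate 2 or sh4 doxycycline replicate 1 or 2. The INA difference of shAMB from EV (−0.26, adjusted p = 0.0277) was lost without EV DMSO replicate 3, EV doxycycline replicate 3, shAMB DMSO replicate 2 or shAMB doxycycline replicate 3 (−0.25 to −0.23), with the replicate block (adjusted p = 0.0982) and with TPM and limma (−0.043, adjusted p = 0.725). With TPM and limma the VIM difference of sh4 from EV was lost as well (−0.12, adjusted p = 0.333).

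The lines already differed in filament RNA before doxycycline. NEFL was 53.4, 54.4 and 56.2 CPM in EV with DMSO, below the 63.8 to 66.9 CPM of sh4 and the 71.9 to 76.7 CPM of shAMB. The log2 differences from EV were 0.26 ± 0.04 for sh4 (adjusted p = 0.00833) and 0.46 ± 0.04 for shAMB (adjusted p = 3.7e-05). For sh4 this was 1 of 7 genes called, where 1.12% of all genes were called. For shAMB it was 3 of 7, with NEFM at 0.31 (adjusted p = 0.00332) and VIM at 0.32 (adjusted p = 0.0178) besides NEFL, where 1.52% of all genes were called. Each line is 1 population, so a difference between lines in DMSO cannot be told apart from a difference between independently made lines. The sh4 call for NEFL was lost without EV DMSO replicate 1 or 2 or sh4 DMSO replicate 1 or 2. The shAMB call for VIM was lost without EV DMSO replicate 1, 2 or 3 or shAMB DMSO replicate 1 or 3 (0.29 to 0.32).

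Over the 6 culture groups the highest mean of NEFL, NEFM, INA and VIM was in shAMB with DMSO, and the lowest of NEFL, NEFM, NEFH and VIM was in shAMB with doxycycline. INA was lowest in sh4 with doxycycline, at 172 ± 13.5 CPM. PRPH was highest in shAMB with doxycycline, at 129.6 ± 10.5 CPM, and the other 5 groups formed a chain in which each overlapped the next. NES formed such a chain over all 6 groups, from 457 ± 20.3 to 525 ± 33.0 CPM. NEFH did so over its upper 5 groups, from 755 ± 44.9 to 883 ± 26.5 CPM, with shAMB and doxycycline apart at 604 ± 8.70 CPM.

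In tumours 4 of the 7 genes differed between the KO label and control, 3 lower and 1 higher, where 41.1% of 15960 genes tested were called, 21.2% higher and 19.9% lower. The median log2 fold change of the 7 genes was −0.27. NEFH and VIM had groups apart, and NES and PRPH had groups that overlapped.

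VIM changed most. It was 19.5, 15.0, 15.6 and 15.2 CPM in control and 8.37, 8.83, 7.79 and 7.71 CPM in the KO label. All 4 KO tumours lay below all 4 controls, and the log2 fold change was −0.997 ± 0.13 (adjusted p = 0.000187). The call held in all 7 alternative settings and without each of the 8 tumours in turn, where VIM fell by 0.94 to 1.04 on the log2 scale. Summed Schwann cell markers were 6.06 to 9.23 CPM in control and 3.79 to 4.34 CPM in the KO label, and fibroblast markers 57.8 to 94.8 and 85.7 to 129 CPM. The part of such cells, and of mouse reads in the human alignment, in the VIM result was not tested.

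NEFH was 422, 413, 413 and 452 CPM in control tumours and 315, 307, 307 and 317 CPM in the KO label. The groups lay clearly apart, with a log2 fold change of −0.45 ± 0.08 (adjusted p = 0.000938), and the call was lost only with TPM and limma (−0.40, adjusted p = 0.616). That setting called 1002 of 12259 genes in tumours. NEFL was 83.5, 56.3, 75.6 and 72.9 CPM in control and 49.0, 65.2, 65.4 and 59.7 CPM in the KO label. These ranges overlapped through control replicate 2, and the log2 fold change was −0.27 with a 95% interval of −0.56 to 0.02 (adjusted p = 0.129). Without that tumour it was −0.38 with an adjusted p of 0.0266. Under the alternative settings it ran from −0.41 to −0.21, and 1 of them called NEFL lower.

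PRPH, NES, NEFM and INA gave no change that held throughout. PRPH was 30.2, 33.0, 43.6 and 49.5 CPM in control and 71.4, 60.0, 65.0 and 37.3 CPM in the KO label, so 3 KO tumours lay above all controls and 1 within them. Its log2 fold change was 0.58 ± 0.21 (adjusted p = 0.0434). The call was lost without each of control 1, 2 and 3 and KO 1, 2 and 3, with values of 0.44 to 0.63. NES was 378, 368, 415 and 402 CPM in control and 379.8, 310.4, 308 and 253 CPM in the KO label, where KO replicate 1 lay within the controls. Its log2 fold change was −0.32 ± 0.12 (adjusted p = 0.0489), and the call was lost without each of control 2, 3 and 4 and KO 2, 3 and 4, with values of −0.36 to −0.24. Once GC content and length trends were removed PRPH was at 0.33 and NES at −0.59, both called. With TPM and limma and with the replicate block neither was called, and other settings lost a call of PRPH or NES as well. NEFM, with a log2 fold change of −0.04 (95% interval −0.38 to 0.29), and INA, with −0.03 (−0.27 to 0.21), were not called.

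The make-up of the filament RNA pool is given as shares of the summed level, with no test. The summed level of the 7 genes was 540 ± 9.22 CPM per kb in shAMB with DMSO and 448 ± 5.46 with doxycycline, and 536 ± 4.70 against 456 ± 16.7 in sh4. In EV it was 520 ± 19.9 and 533 ± 9.96, and in tumours 305 ± 13.4 in control and 262 ± 8.33 in the KO label. The size of these falls depended on the scaling. As deposited TPM the sum was 1124 ± 32.5 and 1057 ± 40.3 in shAMB, and 1081 ± 7.58 and 1038 ± 34.6 in sh4. In tumours it was 153 ± 38.8 in control and 135 ± 37.9 in the KO label, and the ranges overlapped. Of the sum in CPM per kb, PRPH made up 5.27% ± 0.405 in shAMB with DMSO and 15.8% ± 1.10 with doxycycline, while NEFM went from 15.1% ± 0.576 to 8.04% ± 0.351. In tumours PRPH made up 6.98% ± 1.43 in control and 12.1% ± 2.80 in the KO label, and NEFH 37.5% ± 0.774 and 32.0% ± 1.53. The PRPH shares in tumours overlapped between 8.16% and 8.42%, and those of NEFH did not overlap.

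**Figure D3:**
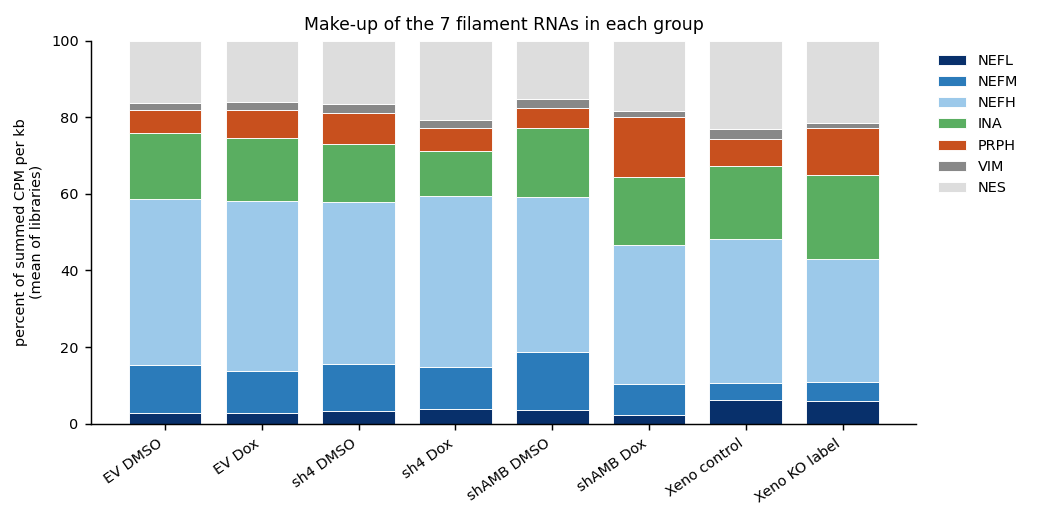
Share of each of the 7 filament genes in their summed CPM per kb (vertical axis, percent, mean of the libraries) in the 6 culture and 2 tumour groups. NEFH is the largest share in every group, and PRPH takes 15.8% in shAMB with doxycycline against 5.27% in shAMB with DMSO.

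The genes with the most similar course over the 18 culture libraries were taken from the 12709 genes whose mean reached 1 CPM, by Pearson's r of log2 CPM. The libraries fall into 6 groups, so r is a description with no p. Among the genes closest to PRPH were PRPF6 (r = 0.991, and 0.944 over the 8 tumours) and GPR162 (0.99 and 0.913). NEFH ran closest to TUBA1B, an alpha tubulin (0.981 and 0.966), GSTM4 (0.979 and 0.771) and ALDOC (0.978 and 0.909). VIM ran closest to C7, a complement component (0.974 and 0.912), DPYSL2 (0.962 and 0.934) and PIR (0.958 and 0.972). For these 3 genes r stayed at 0.771 or more in tumours.

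NEFM ran closest to LTA4H (0.975), C7 (0.974) and FAR2 (0.973) in culture, and r over the tumours was only −0.0056, 0.363 and 0.131. NEFL ran closest to TWIST1, a helix-loop-helix factor (0.974 and 0.630), PCDHB10 (0.952 and 0.479) and NELL2 (0.949 and 0.939). INA ran closest to ST13 (0.995 and 0.563), SF3A3 (0.992 and 0.525) and OXSR1 (0.989 and 0.683). NES ran closest to MINK1 (0.941 and 0.912), TEAD3 (0.933 and 0.884) and POLE (0.929 and 0.865).

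Lists of genes that build, carry, modify or degrade filaments were examined next to the 7 members. Their counts stand against 40.9% of all genes called in sh4, 66% in shAMB and 41.1% in tumours. With TPM and limma 0 to 3 genes of each list were called in tumours, where only 1002 of 12259 genes were called. Of 9 other cytoplasmic intermediate filament genes tested in culture, 1 rose in EV, 4 rose in sh4, and 5 rose and 1 fell in shAMB. Of 11 tested in tumours 7 rose and 1 fell, and 4 were called when the mean had to reach 1 CPM. SYNM, synemin, which joins VIM filaments, rose in each, with log2 fold changes of 0.85 (EV), 0.70 (sh4), 1.96 (shAMB) and 1.25 (tumours), so it also moved with doxycycline alone. KRT80 rose by 3.98 in shAMB and 2.65 in tumours, and KRT18 by 1.96 and IFFO2 by 0.99 in sh4. In tumours KRT7 rose by 3.66 and KRT8 by 3.11. The keratins KRT7, KRT8 and KRT18 had means below 1 CPM in every group, and KRT8 and KRT18 have many processed copies, so their counts are uncertain.

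The nuclear lamins had 6 genes tested. In sh4 1 fell, EMD (emerin) by 1.04, in shAMB 2 rose and 2 fell, and in tumours 1 rose and 2 fell. The sh4 count was 2 without sh4 DMSO replicate 1 or sh4 doxycycline replicate 1 or 3, and 5 once GC content and length trends were removed. With the trends removed 8298 of 14905 genes were called in sh4. LMNA, the lamin of mature cells, rose by 1.50 in shAMB and 2.06 in tumours. TMPO, a lamina partner, fell by 0.48 and 0.57.

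The plakins, which link filaments to other structures, were all called higher in shAMB, 6 of 6, against 37.6% of all genes, while in sh4 1 rose and 2 fell and in tumours 3 of 7 rose and none fell. PLEC (plectin) rose by 2.41 in shAMB and EVPL by 2.00 in shAMB and 3.29 in tumours, where EVPL fell by 1.45 in sh4. EVPL and EPPK1 had group means below 1 CPM in culture. The shAMB count was 4 to 6 with libraries left out, 3 with a mean of at least 1 CPM or with TPM, and 2 once GC content and length trends were removed. In tumours it was 5 without KO replicate 4.

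Of 9 motor genes that move filaments along microtubules, 8 rose in shAMB, 5 in tumours and 4 in sh4, and 1 fell in sh4. The sh4 count was 3 without sh4 DMSO replicate 1. KIF5A, the neuronal kinesin heavy chain tied to neurofilament transport, rose by 1.39 in shAMB and 1.30 in tumours and changed by 0.12 in sh4, where it was not called. KIF5C rose by 0.54 in sh4, 0.98 in shAMB and 1.02 in tumours. Of 18 kinases and phosphatases 2 rose and 5 fell in sh4, 7 rose and 3 fell in shAMB, and 5 rose and 4 fell in tumours. In sh4 this was close to the 40.9% called among all genes, and in shAMB it was below the 66%. In sh4 13 were called without sh4 doxycycline replicate 3, where 8050 of 15069 genes were called. With the replicate block 4 were called, where 4366 of 14905 genes were. MAPK8, a kinase of the neurofilament tail, rose by 0.87, 0.72 and 1.02.

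Of 9 turnover and chaperone genes 1 rose and 1 fell in sh4, 6 rose and 1 fell in shAMB, and 4 rose and 1 fell in tumours. In sh4 5 were called without sh4 doxycycline replicate 3 or once GC content and length trends were removed. Among all genes 8050 of 15069 and 8298 of 14905 were called in these fits. Among proteins that bind neurofilament RNA, ARHGEF28 fell by 0.85 in sh4, rose by 1.11 in shAMB and was not called in tumours (0.51), while TARDBP was not called in any of these.

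The axonal tubulins and microtubule proteins form the tracks of filament transport. Of 16 tested, 1 rose and 9 fell in sh4, 11 rose and 3 fell in shAMB, and 7 rose and 3 fell in tumours. Their median log2 fold change was −0.32 in sh4 and 0.49 in shAMB, where that of all genes was −0.0046 and 0.10. MAPT (tau) fell by 0.81 in sh4 and rose by 1.20 in shAMB and 1.13 in tumours. STMN2, a growth cone regulator of microtubules, fell by 0.78 in sh4, 1.55 in shAMB and 0.51 in tumours. DCX rose by 2.10 and TUBB3 fell by 1.66 in tumours. TUBB2A, which rose by 1.40 in shAMB, has near-identical paralogs and is uncertain. In EV no gene of the 8 lists other than SYNM was called.

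**Figure D4:**
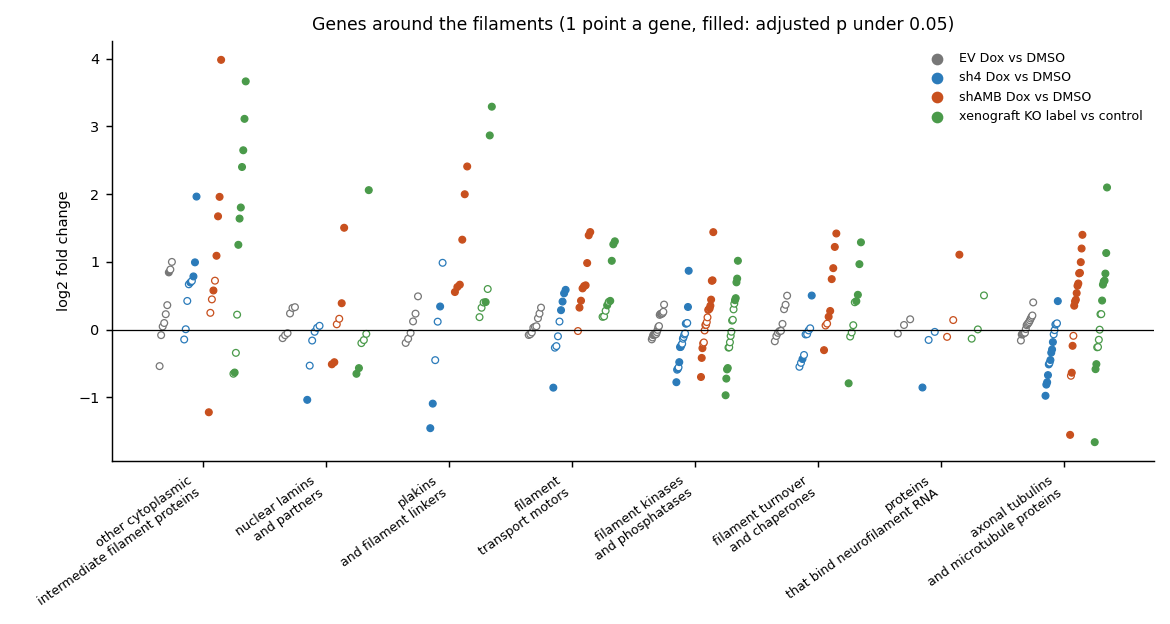
log2 fold change (vertical axis) of every tested gene of the 8 lists of filament-related genes (horizontal axis) in EV, sh4 and shAMB cells and in tumours. Each point is 1 gene, and filled points have an adjusted p under 0.05. In EV only SYNM at 0.85 is filled, and in shAMB all 6 plakins are filled and above 0, which was so in the fit reported here and not under every alternative.

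The members lie at separate sites of GRCh38, by GENCODE version 44. NEFH is on chromosome 22 from 29480218 to 29491390, INA on chromosome 10 from 103277138 to 103290346 and NES on chromosome 1 from 156668763 to 156677407. NEFL, on chromosome 8 from 24950955 to 24956721, and NEFM, from 24913758 to 24919098, are neighbours on opposite strands. Antisense genes overlap 19.8% of the exon bases of NEFL, 26.4% of NEFM and 9.04% of NEFH, and none of NES. The neighbours NEFL and NEFM did not respond alike in sh4, where NEFM fell and NEFL changed by −0.02.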

How the data were processed

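RNA from 18 KELLY culture libraries and 8 KELLY tumours was sequenced as paired reads. The protocol names a stranded total RNA kit, whereas the labels name polyA RNA as the molecule. Groups were taken from the sample titles. Per the labels, the authors aligned reads with STAR and quantified them with RSEM on hg38, and SAMtools was used. Tool versions are stated only for the mouse libraries of the study, and the strand setting is not given in the sources used here. The authors deposited RSEM expected counts per gene, which were rounded here to whole numbers, and TPM per gene, which served only as an alternative. The culture columns are headed Neg and Pos, and these were read as DMSO and doxycycline. Nothing in the labels says that replicates were separate cultures or animals, so p-values measure the spread between these samples, which may be technical. No 2 replicate columns were identical. In sh4 with doxycycline the counts of replicates 1 and 2 differed by a chi-square per degree of freedom of 6.11. Replicate 3 differed from them by 62.7 and 45.9, and no pair of another culture group exceeded 34.8.

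Genes were kept by filterByExpr (14905 in culture, 15960 in tumours), scaled by TMM and tested with the quasi-likelihood F test of edgeR 4.0.16 in R 4.3.3, with all 18 culture libraries in 1 fit and the 8 tumours in another. Benjamini-Hochberg adjustment ran over all genes tested, and a gene is called at an adjusted p under 0.05. Fold changes are given ± SE and levels ± SD. Levels of different genes are compared only as CPM per kb of the deposited length. The steps were tested on simulated data. The 7 genes, the 8 lists around them and the marker lists were chosen with earlier results of these data known. Named genes are the 7 members and RUNX1T1, up to 3 called genes with the largest change per list and comparison, followed through the other comparisons, and the 3 genes most alike to each member. A few genes that this rule names are not reported here. Alternatives were RLE scaling, no filter, a mean of at least 1 CPM, DESeq2 1.42.0, log2(TPM + 0.5) with limma 3.58.1 for genes with a mean TPM of at least 0.5, removal of GC content and length trends, the replicate number as a block, a fit of the compared groups only, and leaving out each library in turn. Each member had 401 or more counts in every library. Sequences are from RefSeq, GRCh38.p14.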

Additional observations from a re-analysis of the deposited data

Results flagged for a closer look

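The doxycycline responses of several filament genes differed between lines in the interaction terms of edgeR, given here as log2 differences. Against EV the sh4 response was lower for NEFM (−0.22), NEFH (−0.23), INA (−0.59), PRPH (−0.98) and VIM (−0.34). Against EV the shAMB response was lower for NEFL (−0.96), NEFM (−1.01), NEFH (−0.51), INA (−0.26) and VIM (−0.91) and higher for PRPH (0.998). RUNX1T1 itself differed by 0.21 between shAMB and EV, with a higher response in shAMB. The shAMB values of INA and RUNX1T1 lost their call under alternatives and with single libraries left out, and that of PRPH was 0.31 once GC content and length trends were removed. The sh4 response minus the shAMB response was 0.89 for NEFL, 0.79 for NEFM, 0.28 for NEFH, −0.33 for INA, −1.98 for PRPH and 0.57 for VIM. For PRPH all 3 doxycycline libraries of shAMB lay above and all 3 of sh4 below their DMSO libraries.

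In the control tumours VIM had 1 value far from the others, 19.5 CPM in replicate 1 against 15.0 to 15.6 CPM in the other 3. Chance sets apart about 1 in 20 such groups. Without this tumour the VIM difference between the KO label and control was −0.94 (adjusted p = 0.000316), against −0.997 with it.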

How the results depend on the processing

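Most results on the 7 genes kept their direction and call. The counts of called genes among the 7 moved by over 1.5 times as follows, and those of the lists stand beside them in the results. The 5 genes that differed between sh4 and EV responses became 3 with TPM and limma, with the replicate block and with the compared groups only, and 3 to 5 when single libraries were left out. Of all genes 6064 of 13663 were called with TPM, 2713 of 14905 with the block and 4007 of 14508 with the compared groups. In the main fit 4856 of 14905 were called. For sh4 against EV in DMSO 1 became 2 with GC content and length trends removed, 0 with the block or with the compared groups only, and 0 to 1 with libraries left out. Of all genes 807 of 14905 were called with the trends removed, 0 of 14171 with the block and 23 of 14171 with the compared groups, against 167 of 14905 in the main fit. For shAMB against EV in DMSO 3 became 1 with the block, where 61 of 13991 of all genes were called, against 227 of 14905 in the main fit. The 4 genes of the tumours became 1 with TPM and limma, where 1002 of 12259 of all genes were called. They became 2 with the block, where 4929 of 15960 of all genes were called. With tumours left out they became 2 to 3, and 2 without control replicate 3 or without KO replicate 2 or 3. Of all genes 5502 of 16234, 4961 of 16112 and 5439 of 16075 were called in these 3 fits.

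Same-numbered libraries deviated from their group means with correlations of −0.60 to 0.37. With so few libraries per group these values cannot show whether same-numbered samples were paired. With the replicate block 4 filament genes were called in sh4, 6 in shAMB and 0 in EV, and NEFH in sh4 had an adjusted p of 0.093 (edgeR). Among all 14905 genes tested, 4366 were called with the block in sh4, 8550 in shAMB and 2 in EV. The main fit called 6091, 9840 and 14 of them.

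The sign turned in the following cases. The cause was not tested. With RLE scaling in shAMB NES was −0.071 and RUNX1T1 −0.019, with DESeq2 −0.071 and −0.018, and with the compared groups only −0.076 and −0.024. NES in shAMB was −0.042 without a filter and −0.023 with the mean of at least 1 CPM, where INA in tumours was 0.014. With TPM and limma NES in EV was −0.018, NEFL in sh4 0.16, NEFH in sh4 0.017, RUNX1T1 in sh4 0.060, NEFL and NEFM in sh4 minus EV 0.14 and 0.022, NES in shAMB minus EV 0.20, NEFM in sh4 against EV in DMSO −0.045 and INA in tumours 0.0047. With GC content and length trends removed NEFH and NES in EV were −0.10 and −0.17, NES and RUNX1T1 in shAMB −0.77 and −0.018, NEFH and RUNX1T1 in sh4 minus EV 0.037 and −0.20, NEFM and NES in sh4 against EV in DMSO −0.095 and −0.27, and NEFH, PRPH and NES in shAMB against EV in DMSO 0.069, 0.097 and 0.11.

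With single libraries left out the sign turned within these ranges. In EV INA was −0.042 to 0.028 and VIM −0.058 to 0.035. NES was −0.052 to 0.047 in shAMB and −0.075 to 0.023 in shAMB minus EV, and RUNX1T1 −0.0063 to 0.087 in sh4 minus EV. In sh4 against EV in DMSO NEFM was −0.011 to 0.054 and NEFH −0.048 to 0.054. In shAMB against EV in DMSO NEFH was −0.089 to 0.012, PRPH −0.28 to 0.030, NES −0.058 to 0.0022 and RUNX1T1 −0.080 to 0.0020. In tumours NEFM was −0.13 to 0.064 and INA −0.086 to 0.050.

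TPM moved the median of all genes to 0.14 in sh4 and 0.23 in shAMB, and the share of called genes that were higher from 56.0% to 80.1% and from 56.9% to 71.4%. Removal of GC content and length trends moved that share to 44.6% in sh4 and 44.2% in shAMB, and in tumours from 51.6% to 38.8%.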
